A study of Mus musculus with 19 samples.

Results

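The neuronal cytoskeleton was followed through 10 genes in purified mouse cortical projection neurons. They encode the neurofilament light (Nefl), medium (Nefm) and heavy (Nefh) subunits, alpha-internexin (Ina), the tubulins Tuba4a, Tubb2b and Tubb3, and the microtubule-associated proteins tau (Mapt), MAP2 (Map2) and MAP1B (Map1b). The platform annotation gave these symbols to 23 probe sets, and each gene was represented by the probe set with the highest mean over all 19 arrays. These are 10 of the 18193 genes measured with a probe set of 1 symbol. Neurofilaments are heteropolymers of the light, medium and heavy subunits with alpha-internexin that fill the axon and help to set its calibre, and in developing neurons alpha-internexin is made before the triplet and the heavy subunit last. Microtubules are built from alpha- and beta-tubulin and are bundled and stabilised by associated proteins, of which tau is mainly axonal, MAP2 mainly dendritic and MAP1B prominent in growing axons. In the adult cortex, neurofilament protein is known as a marker of large layer V pyramidal neurons.

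RNA came from neurons of C57BL/6 mice that had taken up green fluorescent microspheres through their axons and were sorted by fluorescence into RNAlater. Corticospinal motor neurons (CSMN), whose axons reach the spinal cord, and callosal projection neurons (CPN), which connect the hemispheres, were collected at 4 ages, the late embryonic day E18 and the postnatal days P3, P6, P14. Corticotectal projection neurons (CTPN), which project to the midbrain tectum, were collected at P14 alone. Every one of the 9 groups was measured on 2 Affymetrix mouse genome arrays, save for 3 of CSMN at P3, and the series describes the replicates as independent collections, so their number limits the precision. By the labels CTPN were tied to visual cortex and both other types to sensorimotor cortex, so type and area cannot be told apart in comparisons with CTPN. RNA passed through 2 rounds of linear amplification before hybridisation. All values are log2 expression, and differences are given ± the standard error (SE) of 1 limma model fitted to all arrays. A gene passed where the Benjamini-Hochberg adjusted p of that model over all genes was under 0.05. The arrays carry no detection calls, and a fold is printed only for genes above 6.62, the highest array median, on each array of the comparison. In sorted bulk samples, fewer cells of a type and less RNA per cell cannot be told apart.

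The labels were checked against genes known for each type. Bcl11b, which marks subcerebral projection neurons, lay between 11.35 and 12.62 in CSMN, between 11.50 and 11.79 in CTPN and between 7.19 and 11.15 in CPN. Cux2, a gene of upper-layer callosal neurons, lay between 8.44 and 11.13 in CPN and between 5.91 and 9.23 in CSMN. Both genes were in the direction of the labels, although the Cux2 ranges overlapped. The CPN arrays at E18 stood apart, with a median over 14 progenitor and cell-cycle genes of 10.63 and 10.85 against 6.24 to 7.79 on the other 17 arrays. Their astrocyte list median was 9.54 and 9.80 against 6.73 to 7.61, and their median over general neuronal genes was 10.17 and 10.32 against 10.48 to 12.71. The part of these other markers in results that use E18 was not tested, and the means over stages and the changes from E18 to P14 are given below without E18 as well. The 2 CSMN arrays at P14 differed from each other by a median of 0.65 per gene, against 0.10 to 0.37 in the other groups, and their microglia list medians were 9.15 and 6.99. Microglia list medians also differed between the CPN arrays at E18 (9.23 and 7.62) and the CSMN arrays at P6 (7.43 and 8.82).

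Tuba4a and Tubb3 are shown as a pair of tubulin genes whose levels moved in opposite directions from P6 to P14, as described below. RefSeq (GRCm38.p6) gave promoter sequences for 5 of the 10 genes, Ina, Tuba4a, Tubb3, Map2 and Map1b, each covering 250 bases before and 50 after the annotated start. Tuba4a lies on the minus strand with its promoter at chr1:75219245-75219544, and Tubb3 on the plus strand with its promoter at chr8:123411303-123411602. Capitals mark matches on either strand to TATAAN, the core of a TATA box, or to GGGCGG, the core of a GC box.
Tuba4a: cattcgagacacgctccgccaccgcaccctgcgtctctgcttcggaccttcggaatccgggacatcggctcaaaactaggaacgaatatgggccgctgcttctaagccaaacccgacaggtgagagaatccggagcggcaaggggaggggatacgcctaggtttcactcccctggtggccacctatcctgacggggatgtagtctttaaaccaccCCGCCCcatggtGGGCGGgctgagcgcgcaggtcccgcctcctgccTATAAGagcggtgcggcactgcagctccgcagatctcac
Tubb3: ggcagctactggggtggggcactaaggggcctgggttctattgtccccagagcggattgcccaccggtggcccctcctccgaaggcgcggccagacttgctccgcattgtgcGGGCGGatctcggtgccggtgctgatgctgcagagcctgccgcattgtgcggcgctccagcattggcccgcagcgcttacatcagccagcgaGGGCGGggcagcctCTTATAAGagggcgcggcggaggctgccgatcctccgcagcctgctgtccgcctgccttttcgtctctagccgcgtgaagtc
Both promoters held 2 matches to GGGCGG. Tubb3 had TATAAG starting 30 bases before the start, overlapped by a match on the opposite strand that starts 32 bases before it. In Tuba4a the only TATAAN match, TATAAG, began at position 12 after the start. Of 32851 mouse promoters of this length, 24.8% held TATAAN and 35.7% held GGGCGG. Among the promoters of the 5 matched genes, 3 held TATAAN (Tuba4a, Tubb3 and Map1b) and 5 held GGGCGG. A match is only a run of letters, and no binding was measured.

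The first comparison asked how the corticospinal and callosal types differ. Over the mean of 4 stages, 6 of the 10 genes were higher in CSMN and 0 lower, beside 2.96% of all genes higher and 5.34% lower. Other markers moved in the same comparison, with 5 of 10 general neuronal genes higher in CSMN (median 0.32), and 11 of 14 progenitor and cell-cycle genes and 5 of 9 astrocyte genes lower. Without E18 these counts were 4 higher and 1 lower, 1 lower and 1 lower, and their part in the result was not tested. The 6 were all 4 neurofilament-type subunits and the tubulins Tuba4a and Tubb3. The median difference of the 10 was 0.76, against 0.06 over all genes. Nefl was higher by 1.76 ± 0.13 (3.39-fold, adjusted p = 1.24e-06). Nefm was higher by 1.46 ± 0.13 (2.74-fold, adjusted p = 6.41e-06) and Nefh by 1.54 ± 0.23 (adjusted p = 0.000497). Ina was higher by 0.73 ± 0.10 (1.66-fold, adjusted p = 0.000247), Tuba4a by 1.11 ± 0.09 (2.15-fold, adjusted p = 3.03e-06) and Tubb3 by 0.58 ± 0.13 (adjusted p = 0.0113). The beta-tubulin Tubb2b, tau and MAP2 did not pass, with differences of 0.16 (95% interval -0.15 to 0.46), 0.18 (-0.11 to 0.46) and -0.04 (-0.37 to 0.29). Map1b, at 0.78 ± 0.23, had an adjusted p of 0.0501 and passed with both other normalizations (0.83 with quantile and 0.82 with cyclic loess). Without E18, Nefl (1.36 ± 0.15), Nefm (1.55 ± 0.15), Nefh (1.99 ± 0.26), Ina (0.72 ± 0.11) and Tuba4a (1.0 ± 0.10) still passed, while Tubb3 did not (0.45 ± 0.15, adjusted p = 0.137).

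Stage by stage, 5 of the 10 genes were higher in CSMN at E18, beside 3.98% of all genes (8.94% were lower). For P3 it was 2 genes, beside 0.5% (0.374% lower). For P6 it was 3 genes, beside 0.671% (0.401% lower), and for P14 also 3, beside 0.445% (0.945% lower). None of the 10 passed as lower in CSMN at these 4 stages. Nefl, Nefm and Ina had every CSMN array above every CPN array at all 4 stages, which held for 0.967% of all genes. Median differences of the 10 were 0.75 (E18), 0.41 (P3), 0.42 (P6) and 1.05 (P14), against all-gene medians from -0.01 to 0.10. At E18, where the CPN arrays were high in progenitor genes, 12 of 14 progenitor and cell-cycle genes were lower in CSMN (median -4.12) and 4 of 10 general neuronal genes higher (median 0.62), and their part in the E18 differences was not tested. With array weights the E18 calls of Nefm (adjusted p = 0.116), Ina (0.122) and Tubb3 (0.155) were lost. These stages share the same model, so their spread is estimated in common.

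**Figure D1:**
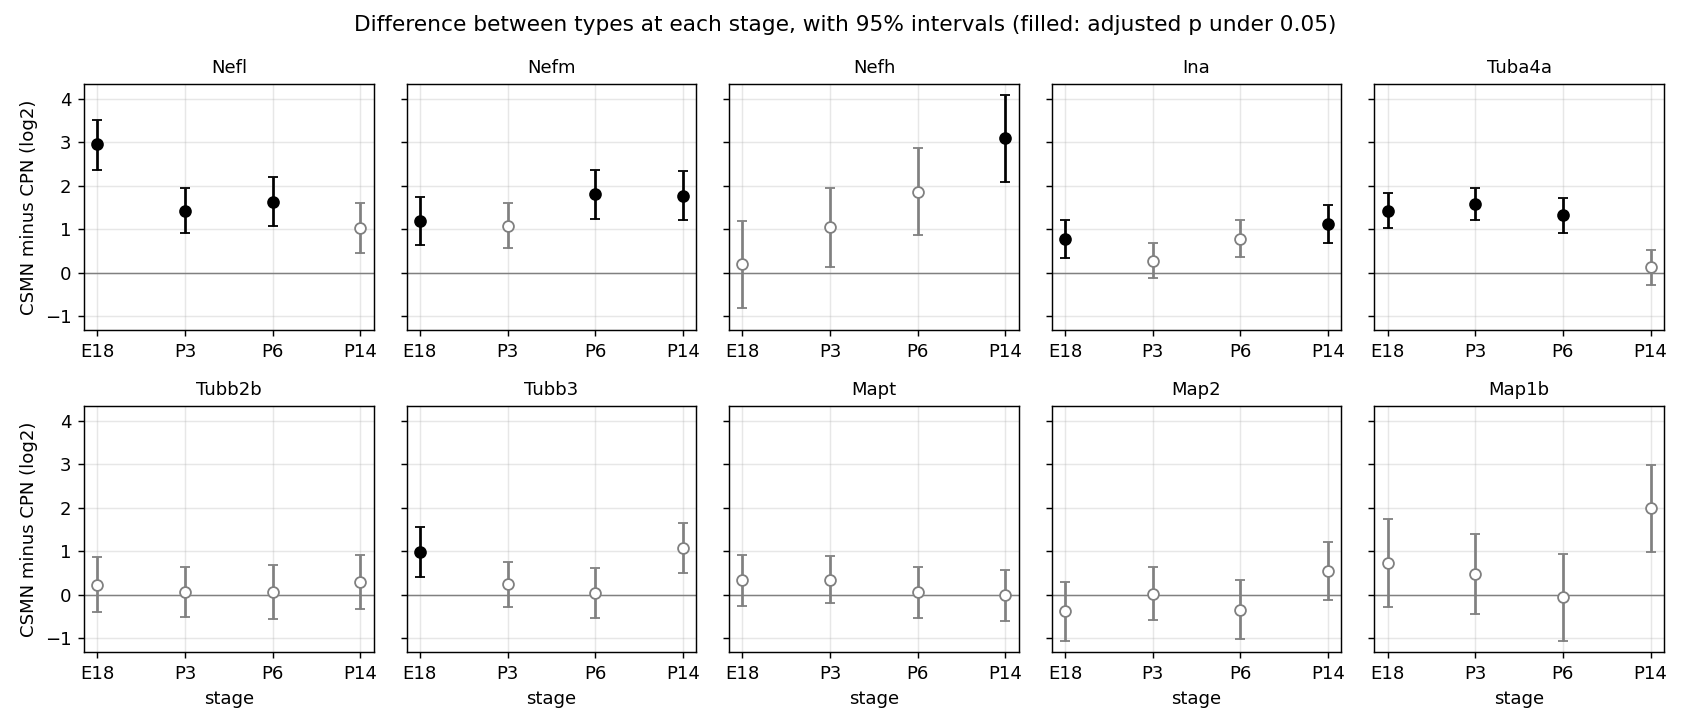
CSMN minus CPN at each stage (log2) for the 10 genes, with 95% intervals; filled points had an adjusted p under 0.05. Nefl was 2.95 at E18 and 1.03 at P14, while Nefh was 0.19 at E18 and 3.09 at P14, and Tubb2b and Mapt stayed within 0.34 of 0 at each stage.

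The light subunit Nefl, on which the neurofilament core is built, had its largest mean difference between the types at the earliest stage. CPN arrays read 8.76 and 9.33 (E18), 11.37 and 11.00 (P3), 11.19 and 11.38 (P6), and 12.68 and 12.57 (P14). CSMN arrays read 11.93 and 12.06 (E18), 12.13, 12.85 and 12.84 (P3), 13.14 and 12.69 (P6), and 13.75 and 13.56 (P14). The CSMN arrays at E18 were already above all CPN arrays up to P6, and CSMN at P14 was the highest group, with no overlap with the next. The type difference was 2.95 ± 0.27 at E18 (7.71-fold, adjusted p = 4.56e-06), 1.42 ± 0.25 at P3 (adjusted p = 0.0101) and 1.63 ± 0.27 at P6 (adjusted p = 0.00659). At P14 it was 1.03 ± 0.27 and did not pass (adjusted p = 0.0865). The P3 call was lost without CPN replicate 1 (1.61, adjusted p = 0.0709), CPN replicate 2 (1.24, 0.269) or CSMN replicate 2 (1.30, 0.062), and the P6 call without CPN replicate 1 (1.54, 0.0715) or CSMN replicate 1 (1.41, 0.139). The lone array left in such a group was assumed to vary like the others.

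The medium subunit Nefm, which joins the light chain and carries a long side arm, was higher in CSMN at 3 of the 4 stages by the test. The CPN values were 8.24 and 8.09 (E18), 9.61 and 9.53 (P3), 9.59 and 9.06 (P6), and 10.53 and 10.34 (P14). The CSMN values were 9.09 and 9.61 (E18), 10.62, 10.80 and 10.52 (P3), 11.37 and 10.87 (P6), and 12.49 and 11.91 (P14). CSMN at P14 lay above every other group and CPN at E18 below every other. The type difference was 1.19 ± 0.26 at E18 (adjusted p = 0.00839), 1.08 ± 0.24 at P3 (adjusted p = 0.0507), 1.80 ± 0.26 at P6 (3.47-fold, adjusted p = 0.00256) and 1.77 ± 0.26 at P14 (3.40-fold, adjusted p = 0.00302). The Nefm call at E18 was lost without CPN replicate 2 (1.11, adjusted p = 0.0531) or CSMN replicate 2 (0.93, 0.0734), and that at P6 without CSMN replicate 1 (1.54, 0.0733). Nefl and Nefm are neighbouring coding genes on chromosome 14.

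The heavy subunit Nefh, whose phosphorylated side arms space mature filaments, had its largest mean difference between the types at the last stage. In CPN it measured 5.51 and 7.32 (E18), 6.54 and 6.76 (P3), 6.34 and 6.69 (P6), and 8.14 and 8.23 (P14). In CSMN it measured 6.61 and 6.59 (E18), 7.36, 7.60 and 8.11 (P3), 8.82 and 7.92 (P6), and 11.56 and 10.99 (P14). The CSMN mean at P14 stood 1.94 above that of the next group, CTPN, while at E18 the CSMN arrays lay between the 2 CPN arrays. Of the 19 arrays, 14 exceeded 6.62, so low values may be at background and the early differences may be understated. The type difference was 0.19 ± 0.47 at E18, 1.04 ± 0.43 (P3), 1.86 ± 0.47 at P6 (adjusted p = 0.0866) and 3.09 ± 0.47 at P14 (8.50-fold, adjusted p = 0.00344). Only the last of these passed, and it did not pass without CPN P14 replicate 1 (3.04, adjusted p = 0.0604).

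Alpha-internexin (Ina), the filament protein of young neurons, was distributed differently. CPN arrays read 11.43 and 11.31 (E18), 12.09 and 11.91 (P3), 11.53 and 11.56 (P6), and 11.28 and 11.06 (P14). CSMN arrays read 12.43 and 11.87 (E18), 12.22, 12.40 and 12.19 (P3), 12.29 and 12.36 (P6), and 12.46 and 12.10 (P14). The CSMN groups overlapped with each other at every stage, whereas CPN was highest at P3 and lowest at P14. The type difference was 0.77 ± 0.20 at E18 (adjusted p = 0.0226), 0.27 ± 0.19 (P3), 0.78 ± 0.20 at P6 (adjusted p = 0.106) and 1.11 ± 0.20 at P14 (2.16-fold, adjusted p = 0.0127). The Ina call at E18 was lost without CPN replicate 1 (0.83, adjusted p = 0.0752), CPN replicate 2 (0.71, 0.103) or CSMN replicate 1 (0.49, 0.136). That at P14 was lost without CPN replicate 1 (1.22, 0.0876) or CPN replicate 2 (1.0, 0.177).

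**Figure D2:**
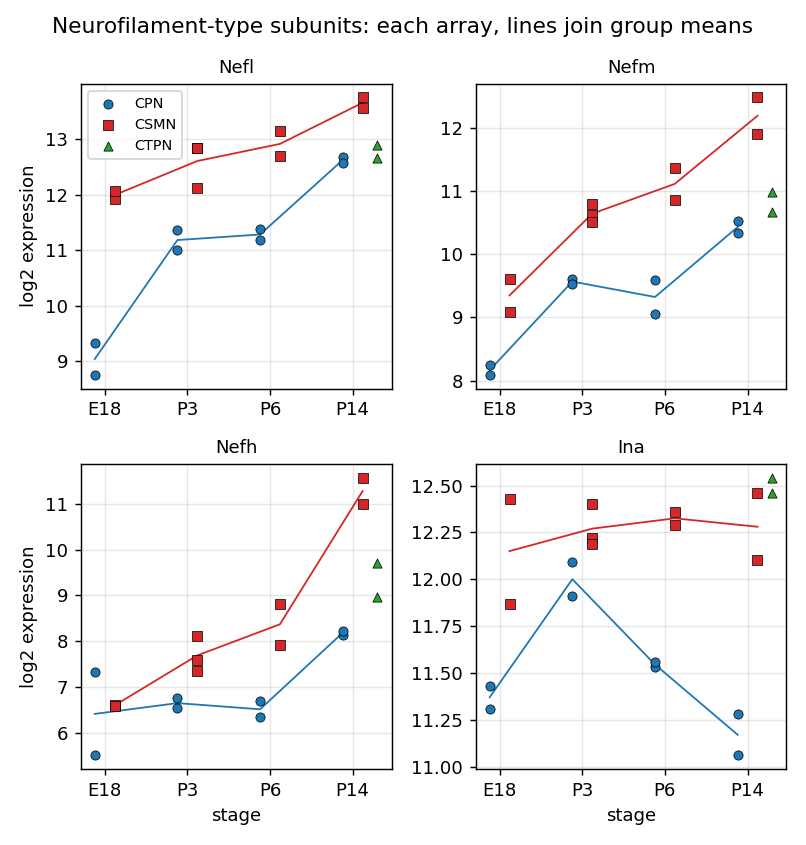
Log2 expression of Nefl, Nefm, Nefh and Ina on each of the 19 arrays by stage, with lines joining the group means of CPN and of CSMN and triangles for CTPN at P14. The 2 CSMN arrays at P14 were the highest for Nefl, Nefm and Nefh, while for Ina the highest group was CTPN, at 12.54 and 12.46.

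With array weights, which down-weighted both CSMN P14 arrays to 0.143, none of the P14 differences of the 10 genes passed, among them Nefh (3.09, adjusted p = 0.614), Nefm (1.77, adjusted p = 0.638) and Ina (1.11, adjusted p = 0.782). Without CSMN P14 replicate 1, the P14 differences of Nefh (2.80, adjusted p = 0.0025), Nefm (1.48, adjusted p = 0.00202) and Ina (0.93, adjusted p = 0.00699) passed, and so did those of Nefl (0.94), Tubb3 (0.92), Mapt (-0.60) and Map1b (2.0), with 6256 of all genes called. Without CSMN P14 replicate 2, Nefh (3.38), Nefm (2.05) and Ina (1.29) passed.

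Among the tubulins, Tuba4a, an alpha-tubulin abundant in mature neurons, spanned 4.71 between its lowest and highest group means. The CPN values were 8.87 and 9.08 (E18), 10.81 and 10.88 (P3), 11.97 and 11.64 (P6), and 13.65 and 13.47 (P14). The CSMN values were 10.34 and 10.44 (E18), 12.38, 12.31 and 12.56 (P3), 13.29 and 12.94 (P6), and 13.72 and 13.64 (P14). CSMN was ahead of CPN up to P6, and the 2 types overlapped at P14. The type difference was 1.42 ± 0.19 at E18 (2.67-fold, adjusted p = 0.000121), 1.57 ± 0.17 at P3 (2.98-fold, adjusted p = 0.000401), 1.32 ± 0.19 at P6 (2.49-fold, adjusted p = 0.0021) and 0.12 ± 0.19 at P14 (95% interval -0.28 to 0.51, adjusted p = 0.776). The P6 call of Tuba4a was lost without CSMN P6 replicate 1 (1.14, adjusted p = 0.0629). Of its 8 pairs of groups adjacent in level, 7 did not overlap.

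Tubb2b, a beta-tubulin of young and migrating neurons, was similar in the types and low at P14 in both. In CPN it measured 13.30 and 12.90 (E18), 13.08 and 12.95 (P3), 13.05 and 12.80 (P6), and 11.32 and 11.16 (P14). In CSMN it measured 13.36 and 13.29 (E18), 12.84, 12.98 and 13.37 (P3), 12.84 and 13.14 (P6), and 12.08 and 10.97 (P14). The 6 groups from E18 to P6 overlapped with one another in an unbroken chain and lay above CTPN, and the 2 CSMN arrays at P14 lay on either side of the CPN pair. No type difference of Tubb2b passed at any stage (0.23 at E18, 0.05 (P3), 0.06 at P6 and 0.28 (P14), each ± 0.27 to 0.29). Tubb2b lies next to its close paralogue Tubb2a and has 1 probe set, so the 2 transcripts may not be fully separated.

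Tubb3, the neuron-specific class III beta-tubulin, measured 11.63 and 11.28 in CPN at E18, 12.33 and 12.11 (P3), 12.53 and 12.10 (P6), and 11.00 and 10.63 (P14). CSMN arrays read 12.82 and 12.04 (E18), 12.39, 12.53 and 12.45 (P3), 12.24 and 12.48 (P6), and 12.04 and 11.73 (P14). The CPN arrays lay below the CSMN arrays at E18, P3 and P14, and the types overlapped at P6. The type difference was 0.98 ± 0.27 at E18 (1.97-fold, adjusted p = 0.0276), 0.24 ± 0.24 (P3), 0.04 ± 0.27 at P6 and 1.07 ± 0.27 at P14 (adjusted p = 0.0713). The Tubb3 call at E18 was lost without CPN replicate 1 (1.15, adjusted p = 0.0563), CPN replicate 2 (0.80, 0.147) or CSMN replicate 1 (0.59, 0.181).

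**Figure D3:**
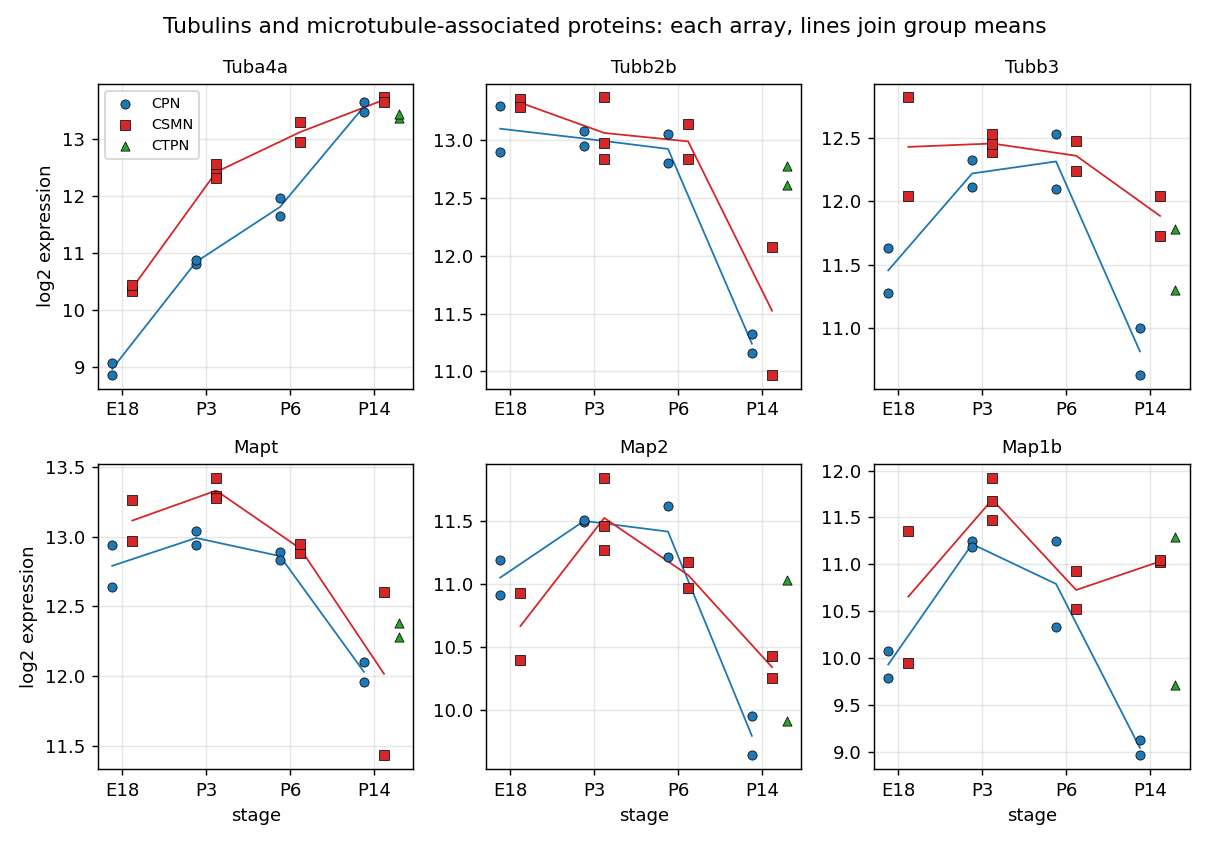
Log2 expression of Tuba4a, Tubb2b, Tubb3, Mapt, Map2 and Map1b on each of the 19 arrays by stage, with lines joining the group means of CPN and of CSMN and triangles for CTPN at P14. Tuba4a had a higher mean at each later stage in both types, whereas Tubb2b, Tubb3, Mapt and Map2 had lower means at P14 than at P6 in both.

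Tau (Mapt), the axonal microtubule protein, was high in all groups. CPN arrays read 12.94 and 12.64 (E18), 13.04 and 12.94 (P3), 12.89 and 12.83 (P6), and 11.96 and 12.10 (P14). The CSMN values were 13.26 and 12.97 (E18), 13.29, 13.28 and 13.42 (P3), 12.88 and 12.95 (P6), and 12.60 and 11.43 (P14). The means of the types were within 0.34 of each other at every stage, and none of these differences passed. The 2 CSMN arrays at P14 differed by more than the types did.

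MAP2 (Map2), the main dendritic microtubule protein, measured 10.91 and 11.19 in CPN at E18, 11.49 and 11.51 (P3), 11.62 and 11.21 (P6), and 9.95 and 9.64 (P14). In CSMN it measured 10.40 and 10.93 (E18), 11.27, 11.84 and 11.46 (P3), 10.97 and 11.17 (P6), and 10.43 and 10.25 (P14). It was the only one of the 10 whose mean was lower in CSMN than in CPN at E18 (-0.39 ± 0.32, adjusted p = 0.43), and at P14 it was 0.54 ± 0.32 higher (adjusted p = 0.42). Neither difference passed.

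MAP1B (Map1b), which binds microtubules in growing axons, varied widely between replicates in some groups. The CPN values were 9.79 and 10.07 (E18), 11.25 and 11.18 (P3), 10.33 and 11.25 (P6), and 8.96 and 9.12 (P14). CSMN arrays read 11.36 and 9.95 (E18), 11.47, 11.68 and 11.92 (P3), 10.52 and 10.93 (P6), and 11.02 and 11.04 (P14). At P14 both CSMN arrays were well above both CPN arrays. The difference there was 1.99 ± 0.47 (3.97-fold) with an adjusted p of 0.0532. It was 2.16 with cyclic loess (adjusted p = 0.0447) and 0.50 with the mean of all probe sets (adjusted p = 0.397). The other probe sets showed no clear direction, with -0.42 ± 0.81 for 1421851_at and -0.09 ± 0.28 for 1421850_at. With 1421851_at the CSMN arrays read 9.65 and 6.52 and the CPN arrays 8.37 and 8.63. With 1421850_at these arrays read 5.89 to 6.23, under 6.62. The size of the difference thus depended on the probe set. The other stages gave 0.72 at E18, 0.47 at P3 and -0.06 at P6.

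The next question was how the cytoskeleton changed with maturation. From E18 to P14 in CPN, 4 of the 10 genes rose and 2 fell, beside 10.2% of all genes that rose and 8.98% that fell. Tuba4a rose by 4.59 ± 0.19 (24.1-fold, adjusted p = 1.11e-09), Nefl by 3.58 ± 0.27 (11.9-fold, adjusted p = 3.88e-07), Nefm by 2.27 ± 0.26 (4.82-fold, adjusted p = 1.9e-05) and Nefh by 1.77 ± 0.47 (adjusted p = 0.014). Tubb2b fell by 1.86 ± 0.29 (3.62-fold, adjusted p = 0.000333) and Map2 by 1.25 ± 0.32 (2.39-fold, adjusted p = 0.0106). The other 4 did not pass, with -0.20 for Ina, -0.64 for Tubb3, -0.75 for Mapt and -0.89 for Map1b, although Tubb3 and Mapt passed with quantile (-0.81 and -0.84) and cyclic loess (-0.86 and -1.01) normalization. The Nefh call was lost without CPN E18 replicate 1 (0.87, adjusted p = 0.199), CPN P14 replicate 1 (1.82, 0.0676) or CPN P14 replicate 2 (1.73, 0.0835), and the Map2 call without CPN E18 replicate 2 (-1.11, 0.0882) or CPN P14 replicate 2 (-1.10, 0.1). With P3 in place of E18, Tuba4a (2.72), Nefl (1.44), Tubb2b (-1.77) and Map2 (-1.70) still passed, Ina (-0.83), Tubb3 (-1.41), Mapt (-0.96) and Map1b (-2.17) passed as well, and Nefm (0.86, adjusted p = 0.0582) and Nefh (1.53, adjusted p = 0.0594) did not.

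From E18 to P14 in CSMN, 4 of the 10 genes rose and 2 fell, beside 9.27% of all genes that rose and 5.85% that fell. Nefh rose by 4.67 ± 0.47 (adjusted p = 1.12e-05) from E18 values just under 6.62 (6.61 and 6.59), where background may hide part of the rise. Tuba4a rose by 3.29 ± 0.19 (9.77-fold, adjusted p = 5.96e-08), Nefm by 2.85 ± 0.26 (7.20-fold, adjusted p = 5.67e-06) and Nefl by 1.66 ± 0.27 (3.16-fold, adjusted p = 0.000809). Tubb2b fell by 1.80 ± 0.29 (3.48-fold, adjusted p = 0.00085) and Mapt by 1.10 ± 0.28 (2.15-fold, adjusted p = 0.0147). The others gave 0.13 for Ina, -0.54 for Tubb3 (-0.83 with quantile normalization, which passed), -0.32 for Map2 and 0.37 for Map1b. The Mapt call was lost without CSMN E18 replicate 1 (-0.96, adjusted p = 0.0727) or CSMN P14 replicate 2 (-0.52, 0.0643), and was -1.68 without CSMN P14 replicate 1. With array weights, the calls of Nefl (adjusted p = 0.376), Tubb2b (0.111) and Mapt (0.251) were lost. With P3 in place of E18, Nefh (3.58), Nefm (1.55), Tuba4a (1.26), Nefl (1.05), Tubb2b (-1.54) and Mapt (-1.32) still passed, and Map2 passed as well (-1.19, adjusted p = 0.015).

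The change from E18 to P14 differed between the types for 3 of the 10 genes. Of all genes, 3.53% had a more positive change in CSMN than in CPN and 1.65% a more negative one. Nefh gained 2.90 ± 0.66 more in CSMN (adjusted p = 0.0191), from E18 values of which 3 of 4 were under 6.62, so that the size of this difference is uncertain. Nefl (-1.91 ± 0.38, adjusted p = 0.00811) and Tuba4a (-1.30 ± 0.26, adjusted p = 0.00859) gained less in CSMN, where both were already higher at E18. Nefm, which rose in both types, showed no difference past the test (0.58 ± 0.37, 95% interval -0.21 to 1.37). In the same contrast 2 of 10 general neuronal genes were lower and 0 higher (median -0.58). Of 14 progenitor and cell-cycle genes 9 were higher and 0 lower (median 4.11). The part of these other markers in the differences was not tested. The Nefh call was lost without CPN E18 replicate 2 (2.00, adjusted p = 0.0505), CPN P14 replicate 1 (2.86, 0.0665), CPN P14 replicate 2 (2.95, 0.0682) or CSMN E18 replicate 2 (2.89, 0.0542). With P3 in place of E18, Tuba4a still differed (-1.46, adjusted p = 0.0455), but Nefl (-0.39, adjusted p = 0.684) and Nefh (2.05, adjusted p = 0.361) did not pass, and with array weights none of the 3 passed (adjusted p = 0.433 for Nefl, 0.46 for Nefh and 0.442 for Tuba4a).

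**Figure D4:**
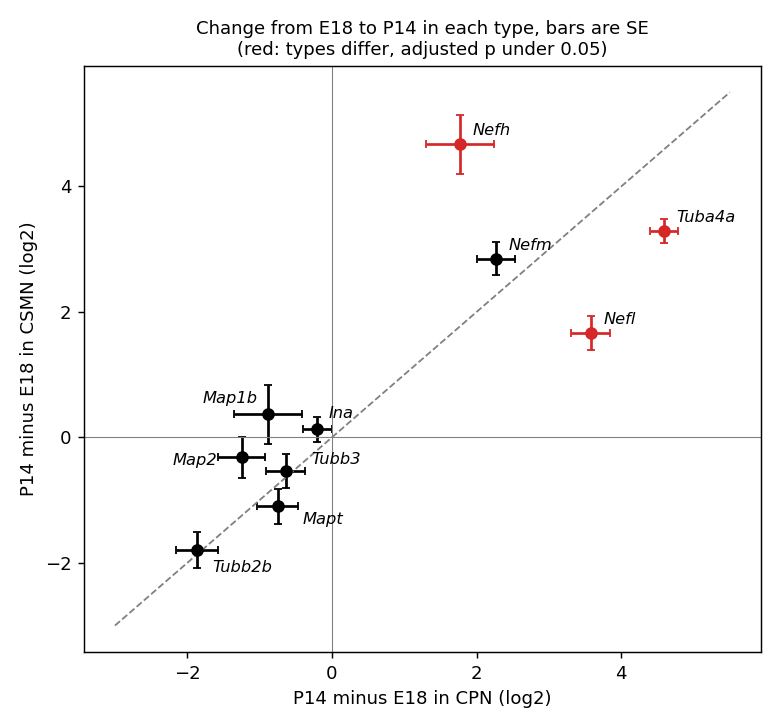
Change from E18 to P14 in CSMN against that in CPN (log2), with bars for SE, a dashed line of equal change, and red for genes whose change differed between the types. Nefh lies above the line, at 4.67 in CSMN and 1.77 in CPN, and Nefl and Tuba4a lie below it.

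The steps between stages, as means of both types, separated early from late changes. From E18 to P3, 4 of the 10 genes rose and 0 fell (9.16% and 3.91% of all genes). These were Tuba4a (1.95 ± 0.13, adjusted p = 7.18e-07), Nefl (1.37 ± 0.18, adjusted p = 2e-04), Nefm (1.35 ± 0.18, adjusted p = 0.000184) and Map1b (1.16 ± 0.32, adjusted p = 0.0259). In the same step 7 of 10 general neuronal genes rose and 0 fell (median 1.11, against 0.66 for the 10 genes). Of 14 progenitor and cell-cycle genes 7 fell and 1 rose (median -1.03), and 12 of 32 other microtubule-associated protein genes rose. The part of these other genes in the step from E18 was not tested. The Map1b call was lost without CPN E18 replicate 1 (1.09), CPN E18 replicate 2 (1.23), CPN P3 replicate 1 (1.14), CPN P3 replicate 2 (1.18), CSMN E18 replicate 2 (0.81) or CSMN P3 replicate 2 (1.16), and with quantile (0.90) or cyclic loess (0.81) normalization or the mean of all probe sets (0.51). From P3 to P6 only Tuba4a rose (0.83 ± 0.13, adjusted p = 0.0222), 1 of the 10 beside 0.0605% of all genes (0.0055% fell), and this call was lost in 7 of the 19 fits that left out 1 array, with differences from 0.74 to 0.92 over the 19. It was also lost with quantile normalization (adjusted p = 0.0519) and with the mean of all probe sets (0.45, adjusted p = 0.242). Neither other Tuba4a probe set gave the call (0.63, adjusted p = 0.305, with 1417374_at and -0.12 with 1417375_at). The 7 arrays were both CPN P3 arrays, both CSMN P6 arrays, CPN P6 replicate 1 and CSMN P3 replicates 1 and 2.

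From P6 to P14, 4 of the 10 genes rose and 4 fell, beside 5.51% and 7.36% of all genes. The neurofilament triplet and Tuba4a rose, with 2.29 ± 0.33 for Nefh (adjusted p = 0.000402), 1.16 ± 0.13 for Tuba4a (adjusted p = 5.43e-05), 1.10 ± 0.19 for Nefm (adjusted p = 0.0013) and 1.04 ± 0.19 for Nefl (adjusted p = 0.00235). Tubb2b fell by 1.57 ± 0.21 (adjusted p = 0.000203), Map2 by 1.17 ± 0.22 (adjusted p = 0.00298), Tubb3 by 0.99 ± 0.19 (adjusted p = 0.00317) and Mapt by 0.86 ± 0.19 (adjusted p = 0.00852). Ina (-0.21 ± 0.14) and Map1b (-0.72 ± 0.33) did not pass. All 8 calls held when any 1 array was left out. With array weights the Nefl call was lost (adjusted p = 0.059). The Mapt step did not pass with probe set 1417885_at (-0.88 ± 0.30, adjusted p = 0.07) but passed with 1424718_at (-1.58) and 1455028_at (-1.53). The Tuba4a step did not pass with 1417375_at (0.40 ± 0.15, adjusted p = 0.108) but passed with 1417374_at (1.37). Those of Map2 are given below.

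CTPN at P14 were set against both other types at that age. These comparisons share the CTPN arrays. CTPN measured 12.67 and 12.89 for Nefl, 10.67 and 10.99 for Nefm, 8.97 and 9.70 for Nefh, and 12.54 and 12.46 for Ina. The triplet thus lay nearer to CPN than to CSMN, while Ina lay with CSMN. Tuba4a measured 13.37 and 13.44, Tubb2b 12.78 and 12.61, and Tubb3 11.30 and 11.78. Mapt measured 12.28 and 12.38, Map2 9.91 and 11.03, and Map1b 9.71 and 11.29, the last 2 with the widest gaps between replicates of any group for these genes. Tubb2b in CTPN was above every CPN and CSMN array at P14.

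Against CPN, 2 of the 10 genes were higher in CTPN and 0 lower, beside 0.456% and 0.605% of all genes. Ina was higher by 1.33 ± 0.20 (2.51-fold, adjusted p = 0.00379) and Tubb2b by 1.45 ± 0.29 (2.74-fold, adjusted p = 0.0261). The Ina call was lost without CPN P14 replicate 2 (1.22, adjusted p = 0.0772), and the Tubb2b call without CPN P14 replicate 1 (1.53, 0.174), CPN P14 replicate 2 (1.37, 0.276), CTPN replicate 1 (1.37, 0.165) or CTPN replicate 2 (1.54, 0.123). Nefl (0.16, 95% interval -0.42 to 0.74) and Nefm (0.40, -0.16 to 0.96) did not pass, nor did Nefh (1.15, 0.15 to 2.14, adjusted p = 0.563). Against CSMN, 0 of the 10 passed in the limma test, beside 0.137% of all genes higher and 0.055% lower in CTPN. The differences of largest size, none past the test, were those of Nefh (-1.94 ± 0.47, adjusted p = 0.172), Nefm (-1.37 ± 0.26, adjusted p = 0.0522), Tubb2b (1.17 ± 0.29, adjusted p = 0.202) and Nefl (-0.87 ± 0.27, adjusted p = 0.374). Nefm passed with quantile (-1.42) and cyclic loess (-1.51) normalization. Leaving out CSMN P14 replicate 1 left a lone CSMN array at that age. The differences from it were -1.08 for Nefm, -1.65 for Nefh, 1.72 for Tubb2b and 0.90 for Mapt.

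Other probe sets of the same genes were compared as well. Nefm, Nefh, Tubb2b and Tubb3 had only 1 probe set each. The second probe set of Nefl followed the chosen 1 over the 9 group means (r = 0.993), as did both others of Ina (0.988 and 0.957), and 1 other of Tuba4a (0.989). With Ina 1448992_at, the type differences at E18 (0.99 ± 0.33, adjusted p = 0.0591) and P14 (1.21 ± 0.33, adjusted p = 0.0995) did not pass. With Ina 1418178_at they did (0.75, adjusted p = 0.0429, and 1.04, adjusted p = 0.0356). The third Tuba4a probe set, 1417375_at, stayed between 8.25 and 9.02 on all arrays, and its change from E18 to P14 was 0.51 ± 0.22 in CPN (adjusted p = 0.135) and -0.02 ± 0.22 in CSMN (adjusted p = 0.964). Its type difference did not pass over the mean of 4 stages (0.07 ± 0.11, adjusted p = 0.721) or at E18 (0.33 ± 0.22, adjusted p = 0.332). With 1417374_at the type difference over 4 stages was 1.08 ± 0.11 (adjusted p = 2.47e-05). With 1417374_at, the type difference in the Tuba4a change did not pass (-0.85 ± 0.32, adjusted p = 0.152), although Tuba4a still rose in CPN (3.75) and in CSMN (2.90). For Map1b, probe set 1421851_at changed in CSMN from E18 to P14 by -2.93 ± 0.81 (adjusted p = 0.0242), where the brighter 1450397_at gave 0.37 ± 0.47. The 2 CSMN P14 arrays read 9.65 and 6.52 with 1421851_at but 11.02 and 11.04 with 1450397_at, so the level of Map1b at P14 in CSMN depended on the probe set. Map2 fell in CPN from E18 to P14 with the brightest probe set and with 1440699_at (-1.95, adjusted p = 0.0147), but 1421328_at gave -0.41 (0.457). The change also passed with 1421327_at (-0.92, adjusted p = 0.0298), whose values of 4.92 to 6.38 all lay under 6.62. From P6 to P14 Map2 fell with 1440699_at as well (-1.28, adjusted p = 0.0313). With 1421327_at (-0.15, 0.628) and 1421328_at (-0.54, 0.121) that step did not pass. Mapt fell in CSMN with 3 of its 4 probe sets, among them 1424718_at (-1.66, adjusted p = 0.00847) and 1455028_at (-1.38, 0.00559), but 1417885_at gave -0.53 (0.448).

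**Figure D5:**
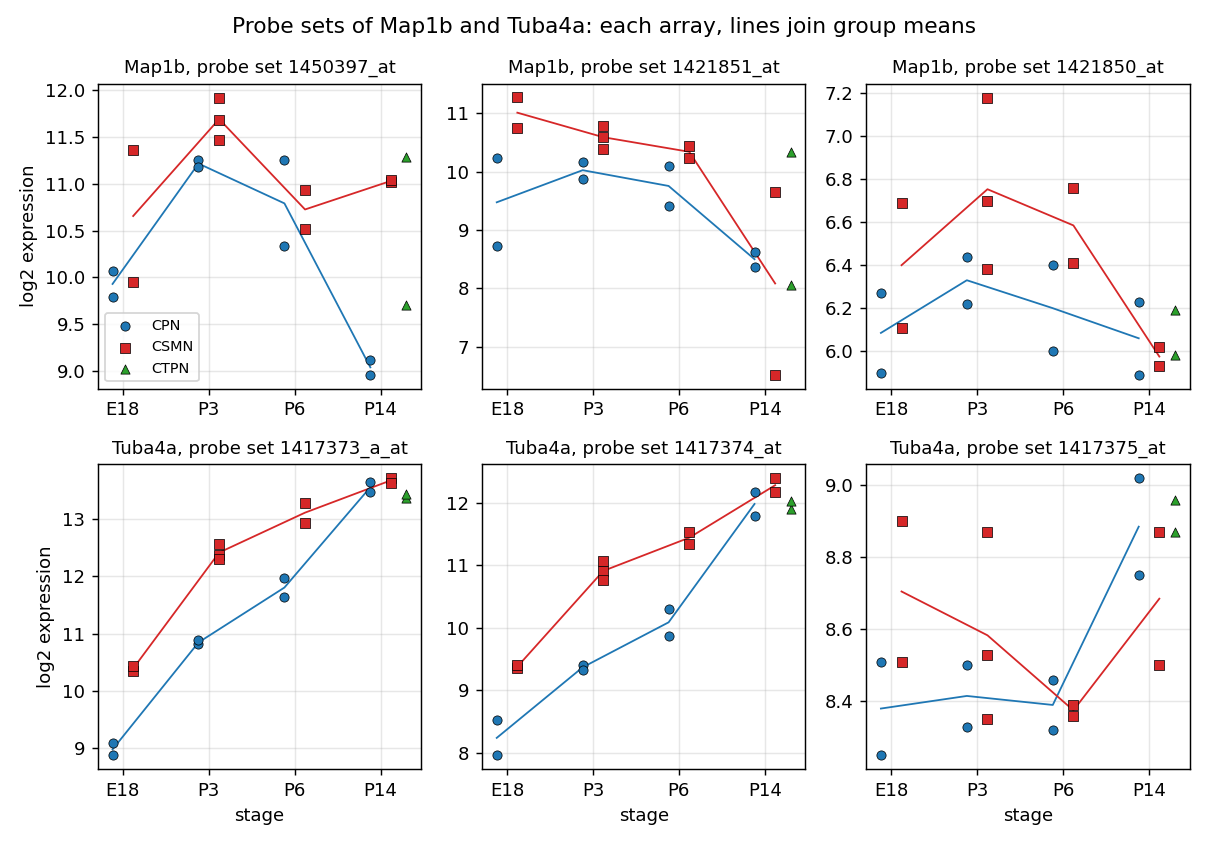
Log2 expression of the 3 probe sets of Map1b (top) and of Tuba4a (bottom) on each of the 19 arrays by stage, with lines joining group means and a separate scale in each panel. For Map1b, 1450397_at and 1421851_at differ in CSMN at P14, and for Tuba4a 1417375_at lacks the rise seen with 1417373_a_at and 1417374_at.

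Over the 9 group means, Nefl and Nefm had a Pearson r of 0.93, Nefm and Nefh 0.91, and Tuba4a 0.90 with both Nefl and Nefm. Tubb2b and Mapt had 0.89, Tubb3 and Map1b 0.86, and Mapt and Map2 0.84. Nefh and Mapt ran in opposite directions (-0.70), as did Nefh and Tubb2b (-0.67). Ina was only loosely related to the triplet (0.58 with Nefl, 0.58 with Nefm and 0.47 with Nefh). These values describe 9 groups that share stages and types. Among 3612 other genes whose group means had an SD of at least 0.5, the patterns most like that of Nefl were those of Tspan17 (0.962), Thy1 (0.959) and Adcyap1 (0.956), and most like Nefm those of Cplx1 (0.978), Gas6 (0.958) and Opn3 (0.955). Nefh was most like Scn4b (0.975), Zbtb11os1 (0.961) and Septin4 (0.957), Tuba4a most like Rgs4 (0.996), Gnb5 (0.992) and Eno2 (0.991), and Tubb2b most like Dab1 (0.974), Tbc1d16 (0.955) and Vcan (0.949).

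The other cytoskeleton genes, 126 in 6 lists, were called between the types about as often as all genes. Over the mean of 4 stages, 5 of the 126 (3.97%) were higher in CSMN and 5 (3.97%) lower by the limma test, beside 2.96% and 5.34% of all genes. Without E18 it was 2 (1.59%) and 3 (2.38%), beside 2.08% and 2.02%. Of 13 other tubulin genes only Tubd1, delta-tubulin, was higher (0.55, and 0.65 without E18), with a list median of 0.15. Of 32 other microtubule-associated protein genes 3 were higher, among them Map4 (0.87) and Map7d2 (0.68), and Dclk3, a doublecortin-like kinase, was lower (-1.25), with a median of 0.06. Without E18, Dclk3 passed (-1.40) and Map4 (0.65) and Map7d2 (0.61) did not. Of 14 other intermediate filament genes, vimentin (Vim), the filament of progenitors and glia, passed (-0.97, lower in CSMN; list median 0.12). It differed by -3.40 at E18, where progenitor genes were also lower in CSMN, and by -0.16 without E18, which did not pass. Of 16 linker and spectrin genes Epb41l3 passed (0.53, and 0.76 without E18; median -0.04). Of 25 tubulin-modifying enzyme genes Ttll4 was lower (-0.74; median 0.09), with -2.31 at E18 and, not past the test, -0.21 without E18. Of 26 kinase and phosphatase genes Mapk10 (-0.74) and Mark1 (-0.60) were lower (median 0.07), and both passed without E18 (-0.68 and -0.61). The medians of these lists are read beside 0.06 for all genes.

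From E18 to P14 in CPN, 27 of the 126 genes (21.4%) rose and 13 (10.3%) fell, beside 10.2% and 8.98% of all genes. In CSMN 22 (17.5%) rose and 12 (9.52%) fell, beside 9.27% and 5.85%. With P3 in place of E18, 11 (8.73%) rose and 11 (8.73%) fell in CPN, beside 4.68% and 3.45%, and 9 (7.14%) rose and 12 (9.52%) fell in CSMN, beside 4.45% and 8.16%. Single lists are small, and their counts are given as a description. Of the 32 microtubule-associated protein genes 9 rose and 2 fell in CPN, and 9 rose and 3 fell in CSMN (medians 0.29 and 0.14, against 0.03 and 0 over all genes). Doublecortin (Dcx), which marks young neurons, fell by 2.85 in CPN and changed by -3.06 in CSMN, and from P3 by -3.49 and -3.68. Map7d2 rose by 3.23 and 2.55, and from P3 by 1.46 and 1.04. Tppp, a tubulin polymerisation promoter, rose by 4.36 in CPN (2.68 from P3), and its relative Tppp3 rose by 1.94 in CSMN (0.18 from P3, not past the test).

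Among the 13 tubulins, 3 rose in CPN (Tubg2 2.28, Tubb4a 1.70 and Tuba8 1.30) and 2 fell in CSMN (Tuba3b -1.43 and Tube1 -1.37), with medians of -0.07 and -0.02. From P3 only Tuba8 of these 5 passed. Of the 14 intermediate filament genes 1 rose and 2 fell in CPN and 3 fell in CSMN (medians -0.01 and -0.30). Among them vimentin (Vim) changed by -6.08 in CPN and -2.81 in CSMN, from 13.34 and 13.05 on the CPN arrays at E18, the 2 arrays with high progenitor genes, and from P3 by -2.78 and -2.05. Of the 25 tubulin-modifying enzymes, 3 rose and 6 fell in CPN and 1 rose and 2 fell in CSMN (medians -0.23 and -0.03). The detyrosinating enzyme Vash2 changed by -3.21 in CPN and -3.23 in CSMN (-3.72 and -2.94 from P3), and the glutamylase Ttll7 rose by 3.15 and 3.73 (1.51 and 1.60 from P3). Of the 16 linkers and spectrins 4 rose and 1 fell in each type, with Epb41l2 at 1.65 and 2.55 and list medians of 0.61 and 0.35, but Epb41l2 did not pass from P3 (-0.32 and 0.74). Of the 26 kinases and phosphatases 7 rose and 2 fell in CPN and 8 rose and 1 fell in CSMN (medians 0.34 and 0.48), led by Cdk5r2, an activator of the neurofilament and tau kinase Cdk5, at 2.90 and 2.21 (1.55 and 1.14 from P3). Among 10 general neuronal genes, 6 rose in CPN and 5 in CSMN (medians 1.26 and 1.18), and from P3 3 rose and 2 fell in CPN and 2 rose in CSMN. Their part in the rise of the neurofilament genes and Tuba4a was not tested.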

How the data were processed

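Gene expression was measured on 19 arrays in 9 groups taken from the sample labels. The authors deposited log2 expression per probe set after RMA, per the submitters' processing notes, with no version; the genome build is not given in the sources used here. The values were used as deposited. Of 45101 probe sets, 34945 carried 1 gene symbol, and a gene was its brightest probe set over all arrays (18193 genes). All columns of values were used.

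With limma 3.58.1 a single model with a mean for each of 9 groups was fitted to every gene in R 4.3.3 (10 residual and 4.46 prior degrees of freedom), with 13 contrasts, moderated two-sided tests and Benjamini-Hochberg adjustment over all genes. The fit was tested on simulated data. It recovered 91% of log2 changes of 1 for the mean of 4 stages. For the type difference in change it recovered 6% of changes of 1 and 51% of changes of 2, so smaller differences there can be missed. False calls made up 2.56% to 8.27% of calls over the comparisons simulated. Non-overlap means every array of 1 group above every array of the other.

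The 10 genes and all lists were chosen with earlier results of these data known. They are always named. From 6 other cytoskeleton lists, up to 3 genes past the test with the largest difference in a described comparison could be named. For 5 genes, the 3 most alike genes were named by Pearson's r, leaving aside clone names and model-number symbols. Lists are described by counts and medians.

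Alternatives were quantile and cyclic loess normalization, a filter on dim genes, the mean over a gene's probe sets, leaving out cross-hybridizing probe sets, an intensity trend, array weights, a replicate block, other stages and leaving out each array. Other probe sets, and the other lists without E18, were added after the data were seen. Promoters came from RefSeq. Figures used Python 3.11.15 and matplotlib 3.10.9.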

Additional observations from a re-analysis of the deposited data

Results flagged for a closer look

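For 3 genes the change from E18 to P14 differed between CSMN and CPN by the limma test of the difference itself. The difference (CSMN change minus CPN change) was -1.91 for Nefl, 2.90 for Nefh and -1.30 for Tuba4a. For Nefh the call was lost without CPN E18 replicate 2 (2.00), CPN P14 replicate 1 (2.86), CPN P14 replicate 2 (2.95) or CSMN E18 replicate 2 (2.89), and with P3 in place of E18 only Tuba4a still differed (-1.46).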

How the results depend on the processing

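Counts below are of the 10 genes past the test. With array weights they became 2 at E18, 6 at P3, 5 at P6, 0 at P14, 3 for the CSMN change from E18 to P14 and 0 for the type difference in that change, which was 1 with P3 in place of E18. Cyclic loess gave 5 at P14 and 1 for CTPN against CSMN. Quantile normalization and the mean of all probe sets each gave 0 from P3 to P6 and 1 for CTPN against CSMN. Leaving out each array gave 6 to 7 for the mean of 4 stages, 2 to 5 at E18, 1 to 3 at P3, 0 to 4 at P6 and 1 to 7 at P14. It gave 4 to 7 for the CPN change, 5 to 6 for the CSMN change, 2 to 4 for their difference, 3 to 6 from E18 to P3, 0 to 1 from P3 to P6, 8 from P6 to P14, 0 to 4 for CTPN against CSMN and 0 to 2 for CTPN against CPN. The share of all genes called in each of these fits is not given beside these counts. The counts therefore describe how calls moved with the settings and are not a result about the 10 genes. The cause was not tested.

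Where a value passed the test before or after the change, its direction turned in 6 cases. The CSMN change of Map1b from E18 to P14 was -0.99 with the mean of all probe sets and -2.93 with 1421851_at. With 1417375_at, Tuba4a gave -0.02 between types at P6, -0.02 for the CSMN change, -0.04 from E18 to P3 and -0.12 from P3 to P6. In 82 further cases the sign turned with neither value past the test, among them the P14 type difference of Map1b (-0.42 and -0.09 with its other probe sets) and its type difference in change (-1.95 and -0.41). The replicate block changed no call, with 6 of the 10 genes past the test over 4 stages. Same-numbered arrays deviated together (r over 0.1) in 16 of 36 group pairs, with r from -0.22 to 0.59. These values cannot decide whether the numbers pair the arrays of some groups. Among all genes, the share of calls that were higher moved from 30.8% to 48.1% at E18, from 61.3% to 47.2% for the CSMN change, from 68.2% to 52.7% for the type difference in change, from 70.1% to 58.5% for E18 to P3 and from 91.7% to 78.6% for P3 to P6 with quantile normalization. With cyclic loess it moved from 32% to 43.7% at P14, from 71.4% to 60.5% for CTPN against CSMN, from 70.1% to 58.4% for E18 to P3 and from 91.7% to 81.2% for P3 to P6. The number of arrays and the lack of detection calls limit the precision.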
